A study of Homo sapiens with 3 samples.

Results

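The expression of 10 genes of the epithelial surface protease system was described in stratified cultures of immortalized human corneal epithelial (iHCE) cells: the secreted kallikreins *KLK5*, *KLK6*, *KLK7*, *KLK8*, *KLK10* and *KLK11*, the membrane-anchored serine proteases matriptase (*ST14*) and prostasin (*PRSS8*), and the Kunitz-type inhibitors *SPINT1* (HAI-1) and *SPINT2* (HAI-2). The genes were chosen by symbol, and every probe set annotated to exactly 1 gene bearing such a symbol was used, which gave 13 probe sets out of 22215 and 10 genes out of 11963. The iHCE cells are a line derived from human corneal epithelium and made to divide indefinitely by the simian virus 40 (SV40) large T antigen, so all cultures carry that antigen and there was no untransformed culture. The cultures were grown at passages 22 to 23 on porous inserts coated with collagen. Their medium held serum, insulin, cholera toxin, EGF and dimethyl sulfoxide, and ascorbic acid was added when the cells were lifted to an air-liquid interface. The 3 cultures, called cultures 1, 2 and 3, had trans-epithelial electrical resistances of 489, 439 and 468 Ω × cm2, and each was hybridized to 1 Affymetrix HG-U133A array. They form a single group with no contrast in treatment, time or genotype, so the results are levels, their spread over cultures and their position against background.

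Kallikrein-related peptidases are trypsin-like or chymotrypsin-like serine proteases that epithelia secrete as inactive precursors and that are switched on by cleavage, often by one another. In skin they cut the desmosomal proteins that hold the outermost cells together and so let them shed. Matriptase and prostasin are serine proteases anchored at the cell membrane that activate each other and support the epithelial barrier, and HAI-1 and HAI-2 are membrane proteins whose Kunitz domains block both of them.

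Each value is a log2 RMA expression level, that is, probe intensities corrected for background, normalized between arrays and summarized per probe set. Background was read from 65 genes that belong to other tissues. The 95th percentile of their levels served as the threshold of an array and was 7.08, 7.0 and 7.05 in cultures 1, 2 and 3. A probe set was above background if it passed the threshold in every culture. Probe sets differ in how well they bind, so a level tells little about whether 1 gene was more abundant than another, and the levels below are read against background and between cultures only.

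The labelled cell type was described by its markers. All 8 genes listed as markers of epithelium in general were above background, whereas 0 of 7 listed for corneal epithelium were. At the same threshold 45.6% of all measured genes were above background. The study had already reported all 7 corneal genes as under-expressed in these cultures against tissue, and *KRT7* and *EPCAM* as over-expressed. Both lists were chosen with such results known, so these counts are no independent check of the cell type. *KRT7*, *CDH1* and *TJP1* of the general list each had 1 of 2 probe sets above background. The general list held *KRT7* and *KRT18*, which the study assigns to simple epithelia. The corneal list held *KRT5*, *KRT14* and *KRT15*, which the study links to undifferentiated stratified epithelium, and these had 6.16, 4.94 and 5.68. *KRT12* and *KRT3*, the paired keratins of the cornea, had 5.26 ± 0.16 and 4.86 ± 0.10 (SD, n = 3), and *PAX6*, the eye transcription factor, passed the threshold in culture 1 only. Of the markers of other cells, 0 of 8 for keratocytes, 0 of 7 for immune cells and 0 of 5 for melanocytes were above background. For endothelium 1 of 4 was, *TEK* (7.24 ± 0.26), and for goblet cells 1 of 5, *SPDEF* (8.40 ± 0.12). *TEK* had 1 of 2 probe sets above background and *SPDEF* 3 of 5. Against the highest reference value 0 of 4 endothelial markers were above background. The keratocyte markers *COL1A1*, *PTGDS* and *THY1* passed the threshold in culture 1 only, and the melanocyte marker *MITF* in culture 3 only. With the 90th percentile of the reference genes as threshold, 3 of 8 keratocyte and 1 of 7 immune markers were above background. Between arrays, Pearson's r across probe sets was 0.988 for cultures 1 and 2, 0.987 for 1 and 3, and 0.994 for 2 and 3. Culture 1 stood apart in its added control RNA, since the median of the poly-A control probe sets was 5.34, against 6.59 and 6.63 in cultures 2 and 3. The GAPDH control probe sets differed by 1.64, 1.34 and 1.28 on the log2 scale between the 3' and 5' ends, a difference that reflects RNA integrity and labelling length. The same difference for ACTB was 2.99, 3.25 and 3.0 and did not set culture 1 apart.

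Of the 10 genes, 8 were above background: *KLK5*, *KLK6*, *KLK8* and *KLK10* among the kallikreins, and *ST14*, *PRSS8*, *SPINT1* and *SPINT2*. *KLK7* and *KLK11* were not. The corresponding share over all measured genes was 45.6%. The 10 genes were chosen with earlier results of these data known, so 8 of 10 is no test of an excess over that share. By probe set, 9 of 13 were above background, against 35.6% of all probe sets. The median level of the 10 genes at their brightest probe set was 8.25, against 6.98 over all genes. These medians give a position on the array and do not compare amounts, as probe sets differ in how well they bind. In limma, which tested each probe set's distance from the threshold, 9 probe sets lay above it at an adjusted p under 0.05 (34.8% of all probe sets did) and the other 4 lay below it (57.3% of all probe sets did). A stricter background was the median of the reference genes plus 3 scaled median absolute deviations, or 8.21, 7.83 and 7.59 in cultures 1, 2 and 3. Against it the genes above background were 5, namely *KLK5*, *KLK6*, *ST14*, *SPINT1* and *SPINT2*. The share over all genes was not computed at these thresholds, so 5 of 10 cannot be set against 45.6%.

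**Figure D1:**
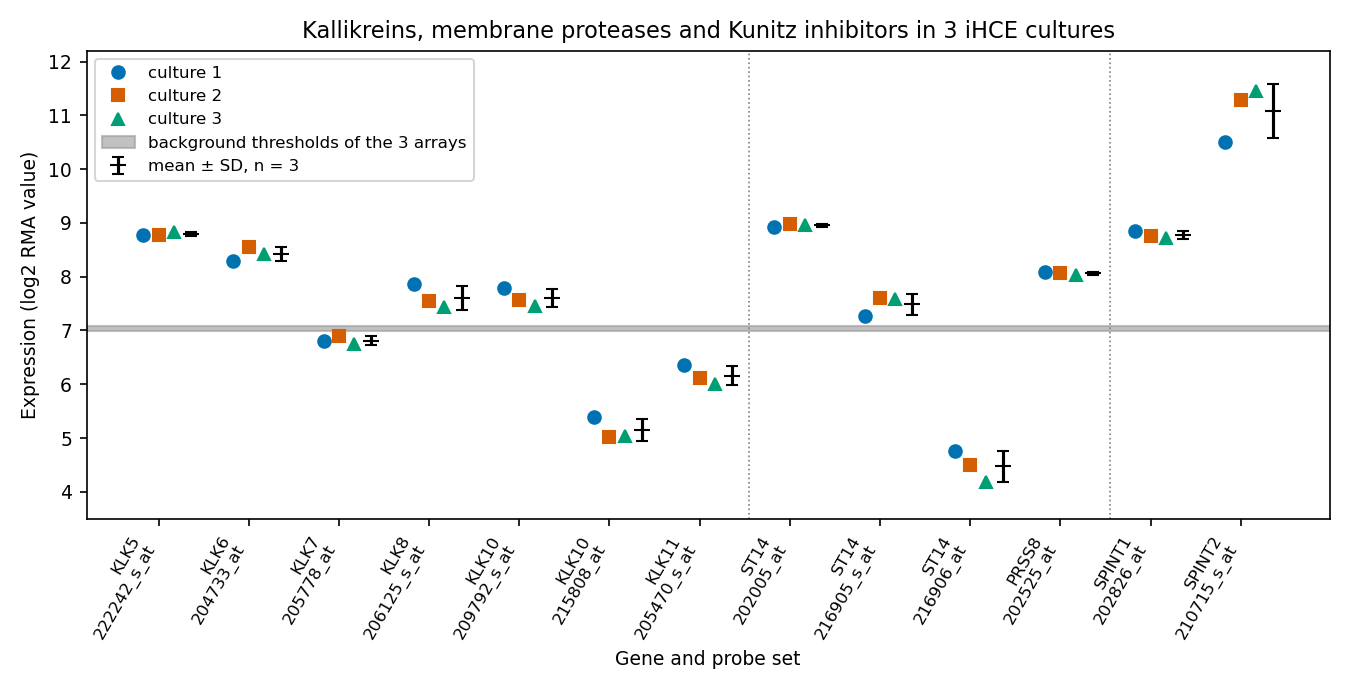
Log2 RMA level (vertical axis) of the 13 probe sets (horizontal axis) in cultures 1, 2 and 3, with the mean ± SD (n = 3) beside each and the thresholds of the 3 arrays as a grey band; dotted lines separate kallikreins, membrane proteases and inhibitors. *SPINT2* lies farthest above the band, at 10.51 to 11.45, while *KLK7*, *KLK11* and the dimmest probe sets of *KLK10* and *ST14* lie below it.

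*KLK5* and *KLK6* were the kallikreins farthest above background. *KLK5* is a trypsin-like protease that activates other kallikreins in skin, and *KLK6* is a trypsin-like protease found in brain as well as in epithelia. *KLK5* (222242_s_at) had levels of 8.77, 8.78 and 8.83 in cultures 1, 2 and 3. The 3 values differed by no more than 1.04-fold. The mean of 8.79 ± 0.03 (SD, n = 3) was 1.75 above the threshold (SE 0.08, limma, Benjamini-Hochberg adjusted p = 2.36e-07). *KLK6* (204733_at) had 8.30, 8.56 and 8.43, with the lowest value in culture 1. Its mean of 8.43 ± 0.13 exceeded the threshold by 1.39 (SE 0.10, limma adjusted p = 2.51e-06). For both genes the call also held against the strictest background tried, with 0.92 left for *KLK5* and 0.55 for *KLK6*.

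*KLK8* and *KLK10* were nearer to the threshold. *KLK8*, also called neuropsin, is a trypsin-like protease of skin and hippocampus, and *KLK10* was first described as a gene lost in breast tumour cells. *KLK8* (206125_s_at) had 7.86, 7.54 and 7.43, and *KLK10* (209792_s_at) had 7.78, 7.56 and 7.46, so that culture 1 was the highest for both. The means were 7.61 ± 0.22 and 7.60 ± 0.17. They exceeded the threshold by 0.57 (SE 0.10, limma adjusted p = 0.000827) and 0.56 (SE 0.09, limma adjusted p = 0.000515). Both calls were lost against the strictest background, where the differences were -0.27 and -0.27, and the limma call was also lost against the highest reference value (adjusted p = 0.233 and 0.237). A second *KLK10* probe set (215808_at) had only 5.39, 5.02 and 5.04, below the threshold on every array, so the call for *KLK10* rests on the brighter probe set.

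*KLK7* and *KLK11* were not above background. *KLK7* is the chymotrypsin-like partner of *KLK5* in skin shedding, and *KLK11* is a trypsin-like kallikrein first cloned from hippocampus. *KLK7* (205778_at) had 6.80, 6.89 and 6.74, between 0.10 and 0.31 under the threshold of its own array. The mean of 6.81 ± 0.08 lay below the threshold by a difference of -0.23 (SE 0.09, limma adjusted p = 0.0351). That difference was small enough to depend on the setting, as its adjusted p was 0.0712 without culture 1 and 0.174 without culture 3, and *KLK7* was 0.20 above the lower threshold given by the 90th percentile of the reference genes. *KLK11* (205470_s_at) had 6.36, 6.11 and 6.01, again highest in culture 1, and its mean of 6.16 ± 0.18 lay below the threshold by a difference of -0.88 (SE 0.09, limma adjusted p = 3.66e-05).

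The kallikrein genes lie side by side on chromosome 19, and the RefSeq gene order there is *KLK1*, *KLK15*, *KLK3*, *KLK2*, *KLK4*, then *KLK5* to *KLK14* in numerical order. Of these 15 genes, 13 had a probe set of their own, and *KLK4* and *KLK9* were not measured. The 4 genes above background, *KLK5*, *KLK6*, *KLK8* and *KLK10*, all lay within the stretch from *KLK5* to *KLK10*, with *KLK7* below the threshold inside it. Of the 7 measured kallikreins outside the 10 genes, 0 were above background, with 0 of their 12 probe sets. Over all genes and all probe sets the shares were 45.6% and 35.6%. The 10 genes and the other kallikreins were listed apart with earlier results of these data known. With the 90th percentile of the reference genes as threshold, 1 of the 7 was above background. The nearest of the 7 was *KLK1*, the tissue kallikrein that releases kinins. It had 6.94 ± 0.04, which was 0.09 to 0.10 under the threshold on the 3 arrays. The prostate kallikreins *KLK2* and *KLK3* (prostate-specific antigen) had 6.38 ± 0.24 and 6.19 ± 0.21, although these 2 genes are close paralogues and the signal of either may include RNA of the other. *KLK12*, *KLK13*, *KLK14* and *KLK15* had means from 5.64 to 6.31.

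**Figure D2:**
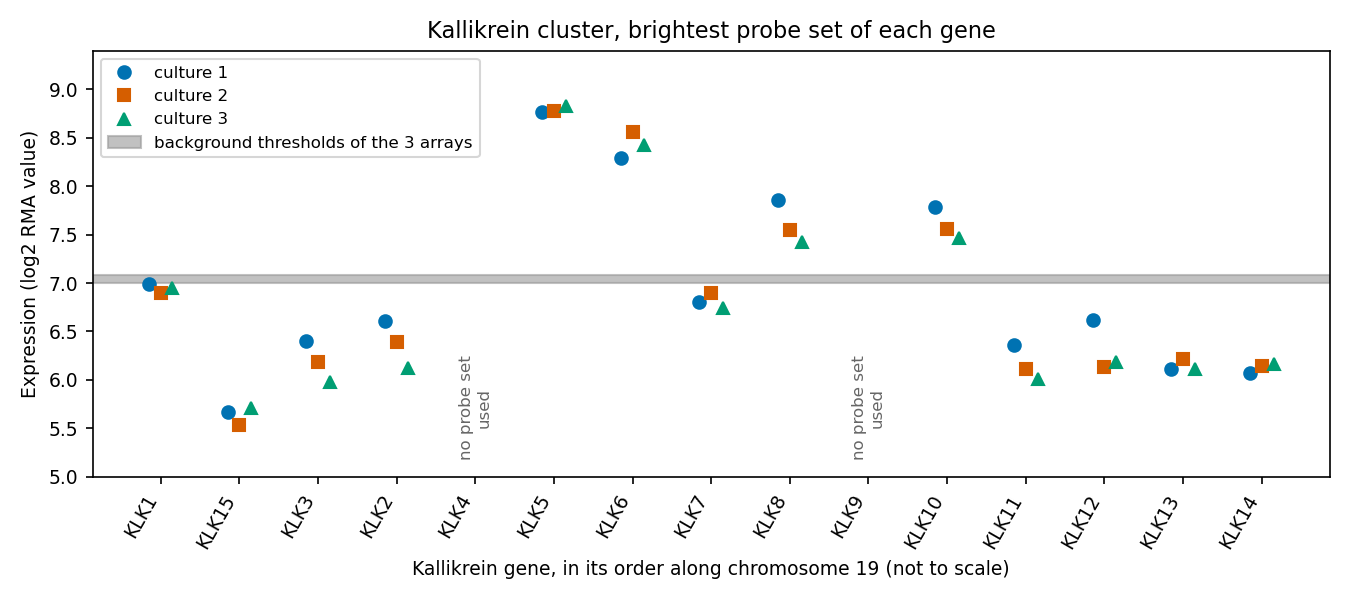
Log2 RMA level (vertical axis) of each kallikrein gene at its brightest probe set, in gene order along chromosome 19 (horizontal axis, not to scale), for cultures 1, 2 and 3; the grey band holds the thresholds of the 3 arrays. *KLK5*, *KLK6*, *KLK8* and *KLK10* lie above the band, and the other 9 measured genes lie below it on all 3 arrays.

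The start sites of *KLK5*, *KLK6* and *KLK7*, neighbours in the cluster with different calls, and that of *SPINT1* are given here to compare their base composition. Each window runs from 250 bases before to 50 bases after a RefSeq start, 5′ to 3′ on the gene's strand, from the RefSeq promoter table for GRCh38.p14, and the capitals mark CG dinucleotides, the sites of DNA methylation. *KLK5* is chr19:50952989-50953288 on the minus strand, *KLK6* is chr19:50969542-50969841 on the minus strand, *KLK7* is chr19:50983868-50984167 on the minus strand, and *SPINT1* is chr15:40843798-40844097 on the plus strand.
KLK5: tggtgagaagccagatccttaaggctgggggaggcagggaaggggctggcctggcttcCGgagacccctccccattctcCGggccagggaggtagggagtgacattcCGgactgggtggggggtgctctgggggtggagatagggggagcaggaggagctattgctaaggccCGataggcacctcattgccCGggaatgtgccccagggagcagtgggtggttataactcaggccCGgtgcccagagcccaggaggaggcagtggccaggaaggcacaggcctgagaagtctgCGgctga
KLK6: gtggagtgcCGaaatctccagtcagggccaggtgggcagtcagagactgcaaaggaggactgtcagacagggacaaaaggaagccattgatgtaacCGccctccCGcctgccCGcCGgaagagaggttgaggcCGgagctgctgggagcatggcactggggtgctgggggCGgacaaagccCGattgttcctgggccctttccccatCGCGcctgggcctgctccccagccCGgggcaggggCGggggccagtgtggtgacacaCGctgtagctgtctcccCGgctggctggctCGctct
KLK7: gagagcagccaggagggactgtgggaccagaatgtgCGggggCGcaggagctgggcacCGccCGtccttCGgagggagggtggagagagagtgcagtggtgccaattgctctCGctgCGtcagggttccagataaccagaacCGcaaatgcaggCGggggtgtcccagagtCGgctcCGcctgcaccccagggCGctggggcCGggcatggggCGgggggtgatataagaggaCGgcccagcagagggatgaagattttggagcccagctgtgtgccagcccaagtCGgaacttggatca
SPINT1: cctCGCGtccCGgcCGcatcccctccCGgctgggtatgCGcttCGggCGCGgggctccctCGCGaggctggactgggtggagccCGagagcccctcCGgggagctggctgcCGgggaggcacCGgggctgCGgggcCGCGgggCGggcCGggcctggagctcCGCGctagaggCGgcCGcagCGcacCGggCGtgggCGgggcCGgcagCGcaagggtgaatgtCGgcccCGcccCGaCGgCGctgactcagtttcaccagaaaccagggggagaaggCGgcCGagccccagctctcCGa

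The *KLK5* window held 7 CG dinucleotides, that of *KLK6* 15, that of *KLK7* 16 and that of *SPINT1* 38, where the median of all 35116 RefSeq windows was 14. The windows printed for *KLK7* and *SPINT1* have the most CG dinucleotides of their gene, as the other windows of *KLK7* held 13 and 15 and the second of *SPINT1* held 25, with no GGGCGG. The letters TATAA, the core of a TATA box, stood on the gene's strand with their first base 28 bases before the start of *KLK5* and 27 bases before that of *KLK7*. TATAA in that position, 45 to 16 bases before the start, was found in 4.09% of all windows. *KLK7* has 3 start windows in the table, and the one printed is the only one of them with TATAA in that position. The *KLK6* window held no TATAA on either strand (20.4% of all windows did). The letters GGGCGG, the GC box, stood 3 times in the printed *KLK6* and *SPINT1* windows, 2 times in that of *KLK7* and not in that of *KLK5*, both strands counted, against at least once in 45% of all windows. Across the 11 windows of the 6 genes that had any, 3 held TATAA and 6 held GGGCGG, and some windows of a gene overlap. A match of letters is a description of the sequence and not a binding site.

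Matriptase and prostasin were both above background. *ST14* at its brightest probe set (202005_at) had 8.93, 8.98 and 8.97, the narrowest spread of the 13 probe sets. The mean of 8.96 ± 0.03 was 1.92 above the threshold (SE 0.08, limma adjusted p = 1.55e-07). The other *ST14* probe sets differed from it. The probe set 216905_s_at had 7.26, 7.60 and 7.59, and exceeded the threshold by 0.44 (SE 0.11, limma adjusted p = 0.00435), a margin that shrank to 0.00 against the highest reference value. The probe set 216906_at had 4.76, 4.49 and 4.18, below the threshold on all arrays. *PRSS8* (202525_at) had 8.09, 8.07 and 8.03, and its mean of 8.07 ± 0.03 exceeded the threshold by 1.03 (SE 0.08, limma adjusted p = 5.77e-06). Against the strictest background the *PRSS8* difference was 0.19 and its call was lost.

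Both inhibitors were above background, and *SPINT2* differed most between cultures. *SPINT1* (202826_at) had 8.86, 8.75 and 8.72, with a mean of 8.78 ± 0.07 that exceeded the threshold by 1.74 (SE 0.08, limma adjusted p = 2.50e-07). *SPINT2* (210715_s_at) had 10.51, 11.28 and 11.45. Culture 1 was the lowest, and the highest and lowest cultures differed by 0.94 on the log2 scale, or 1.92-fold. The mean of 11.08 ± 0.50 exceeded the threshold by 4.04 (SE 0.18, limma adjusted p = 1.90e-07), so the spread was small beside the distance from background. The *SPINT2* SD was larger than that of 98.4% of all probe sets. Culture 1 minus the mean of cultures 2 and 3 was -0.85, and 0.204% of the 491 probe sets within 0.5 log2 of its level had a more negative difference. The poly-A controls and the GAPDH end difference, but not that of ACTB, moved with culture 1 as given above, and their part in the *SPINT2* difference was not tested. In such bulk samples fewer cells expressing a gene and less RNA per cell cannot be told apart.

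Over the 13 probe sets the SD between cultures ranged from 0.03 for *ST14* (202005_at) to 0.50 for *SPINT2*, 9 of 13 were under 0.2, and 2, *SPINT2* and *ST14* (216906_at), had a range over 0.5. The median SD was 0.165, against 0.142 over all probe sets. Over cultures 2 and 3 alone, the pair most alike across the whole array, the median SD of the 13 was 0.0693. The value over all probe sets for that pair was not computed, so this fall cannot be called particular to these genes. The SDs of *ST14* (202005_at), *PRSS8* and *KLK5* were low, with only 3.05%, 3.86% and 4.09% of all probe sets below them. Culture 1 was the highest for 7 of 13 probe sets and the lowest for 5, where 38.7% and 36% of all probe sets were. Among the 7 kallikrein probe sets 4 were highest in culture 1, those of *KLK8*, *KLK10* and *KLK11*, by 0.27 to 0.37 over the mean of the other cultures. For *ST14* the same difference was 0.43 at 216906_at, the largest of the 13, and -0.33 at 216905_s_at. With 1 array a culture, these differences between cultures carry no test.

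**Figure D3:**
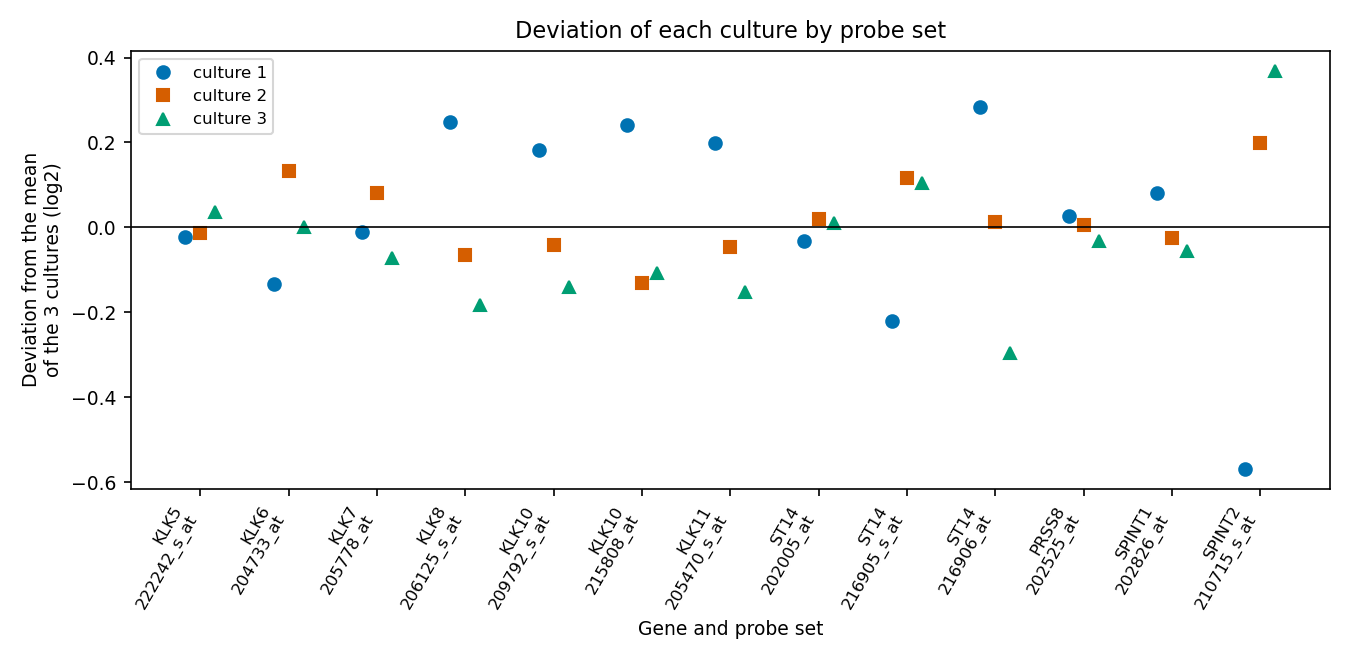
Deviation of each culture from the mean of the 3 cultures (vertical axis, log2) for the 13 probe sets (horizontal axis). Culture 1 is high for *KLK8*, *KLK10* and *KLK11* and low for *SPINT2*, while *KLK5*, *PRSS8* and the brightest *ST14* probe set have cultures close together.

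Other genes of the protease system were counted by list, and each count below stands beside the 45.6% of all measured genes above background. Of 12 other measured membrane serine proteases, 4 were above background: *PRSS22* (7.37 ± 0.21), *TMPRSS15* or enteropeptidase (7.40 ± 0.24), *TMPRSS2* (7.25 ± 0.07) and *TMPRSS6* (7.41 ± 0.20). All 4 were near the threshold, and 0 of 12 remained above the highest reference value. *CORIN*, *HPN* (hepsin) and *PRSS21* (testisin), with 4.07, 5.55 and 4.97, were not above background. *TMPRSS2* and *TMPRSS15* each had a second probe set below the threshold.

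Of 19 other measured serine protease inhibitors, 6 were above background. *SLPI*, the secretory leukocyte protease inhibitor, had 9.61 ± 0.06. *SERPINB1*, an inhibitor of neutrophil proteases, had 9.59 ± 0.22. *WFDC2* had 8.66 ± 0.20, and *SERPINA3*, the antichymotrypsin, had 8.50 ± 0.13. *SERPINE2* (8.32 ± 0.37) and *SERPINB5* or maspin (8.20 ± 0.44) varied more, and *SERPINB5* was lowest in culture 1 with 7.70 against 8.52 and 8.36. *A2M*, *PI3* (elafin) and *SERPINA1* were not above background on all 3 arrays, although *SERPINA1* passed on 2. *SPINK5*, which encodes the LEKTI inhibitor of skin kallikreins, had no probe set listed for it alone in the annotation used, so its level is not given.

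Proteins that matriptase or prostasin cut, and their partners, were above background for 8 of 12 measured genes. *EPCAM*, a cell adhesion protein cut by matriptase, had 10.67 ± 0.14, and *SCNN1A*, the alpha subunit of the epithelial sodium channel, had 10.40 ± 0.10. *CDCP1* had 9.80 ± 0.14, *IGFBP7* had 10.11 ± 0.39, *F3* (tissue factor) had 9.48 ± 0.39, *MET*, the receptor of hepatocyte growth factor, had 8.81 ± 0.05 and *MST1* had 7.75 ± 0.20. The beta subunit gene *SCNN1B* (5.43 ± 0.09) and *SCNN1G* (4.89 ± 0.22), which form the same channel, were not above background, nor were *HGF* (5.57 ± 0.03), the ligand of *MET*, and its activator *HGFAC* (5.14 ± 0.30). *MET* had 1 of 4 probe sets above background, and *SCNN1A* and *IGFBP7* had 2 of 3 each.

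The proteins that kallikreins cut, with their close relatives, were above background for 2 of 9 measured genes. These were *DSG2*, the desmoglein common to most epithelia (10.09 ± 0.16), and *IL1B* (7.91 ± 0.45, with 1 of 2 probe sets above). The desmosomal genes of upper skin layers were not above background: *DSG1* had 4.45 ± 0.06, *DSC1* had 4.79 ± 0.28 and *CDSN* (corneodesmosin) had 6.25 ± 0.33. *DSC2*, another desmosomal gene of the list, was not above background either, with 6.70 ± 0.33. *FLG* (filaggrin) had 3.86 ± 0.11 and *CAMP*, the cathelicidin that skin kallikreins process, had 6.34 ± 0.12. The list of other shedding genes had 7 of 11 above background, among them the lysosomal cathepsins *CTSC* (8.97 ± 0.21), *CTSD* (7.96 ± 0.09) and *CTSL* (10.09 ± 0.21), the cathepsin inhibitors *CST6* (9.80 ± 0.31) and *CSTB* (10.79 ± 0.25), and *BLMH* (7.72 ± 0.26). *SULT2B1*, with 6.33 ± 0.17, was not, *CSTA* passed on 2 arrays and *STS* on 1.

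Of 9 measured regulators of epithelial genes, 6 were above background: *ELF3* (9.13 ± 0.11), *ESRP1* (9.03 ± 0.06), *KLF4* (8.78 ± 0.27), *VDR*, the vitamin D receptor (8.29 ± 0.18), *KLF5* (7.80 ± 0.10) and *GRHL2* (7.57 ± 0.15). *EHF* (4.43 ± 0.08), *OVOL1* (6.25 ± 0.15) and *OVOL2* (6.55 ± 0.14) were not. *ELF3*, *KLF4* and *KLF5* had 1 of 2 probe sets above background and *VDR* 1 of 4. Over the 7 lists, 33 of 79 measured genes were above background, where the share over all genes was 45.6%.

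**Figure D4:**
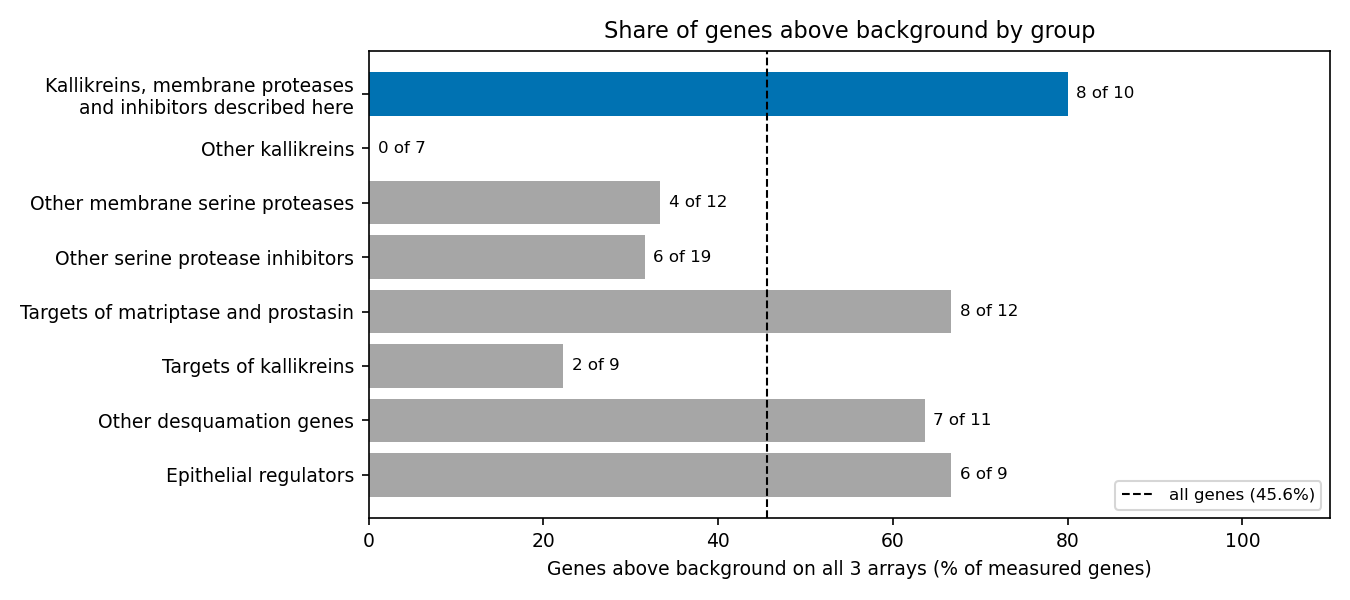
Share of measured genes above background on all 3 arrays (horizontal axis, % of measured genes) for each gene list (vertical axis), with the counts at the bar ends and the share over all genes, 45.6%, as a dashed line. The 10 genes described here stand at 8 of 10, the other kallikreins at 0 of 7 and the targets of kallikreins at 2 of 9. The 10 genes and all lists were chosen with earlier results of these data known.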

How the data were processed

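RNA of 3 iHCE cultures was hybridized to HG-U133A arrays, and the deposited log2 values, 1 per probe set and array, were used as given. Per the submitters' notes, the authors made them with RMA in R 2.8.0. The study's methods describe RMA over these cultures together with earlier arrays of corneal tissue, not analysed here, after probes were regrouped by gene with a custom chip definition. The deposited rows are Affymetrix probe sets and not such gene groups, so it is not known whether the deposited values come from that joint normalization, which would affect the levels. The number of arrays limits the precision. The table held 22283 rows, of which 68 controls were left out. Of the rest, 19071 probe sets had 1 gene in the platform annotation, 1043 had several and 2169 were not listed there. Symbols were updated by Entrez ID through RefSeq GRCh38.p14 for all but 12. A gene was represented by its brightest probe set. The member genes and all lists were chosen with earlier results of these data known. From each list other than the marker lists, genes above background (up to 6) and below (up to 3) were named in alphabetical order. Genes whose probe sets differed in call were named from all lists. A few others (*SCNN1G*, *DSC2*, *DSG1*, *FLG*, *SPINK5*, *KLK* genes and markers) were added by name with their values already known.

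The difference of each value from its array's threshold was tested against 0 in limma 3.58.1 (R 4.3.3) with an intercept only, two-sided, with Benjamini-Hochberg adjustment over 22215 probe sets. The threshold was taken as fixed, so p-values cover the spread between 3 cultures only. The test was checked on simulated data, where it also called a few probe sets whose true level was at the threshold, so calls close to it are uncertain. Alternatives were other thresholds, quantile normalization, probe set classes, an intensity trend and leaving out each culture. Probe sets ending in _s_at or _x_at can bind several transcripts. Promoter windows were taken from RefSeq GRCh38.p14. No window was used for *KLK8*, *ST14*, *PRSS8* or *SPINT2*. Python 3.11.15 was used otherwise.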

Additional observations from a re-analysis of the deposited data

How the results depend on the processing

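Of 111 differences between a member probe set and background under the alternatives, 99 kept direction and call, 6 lost the call and 6 turned. Against the median plus 3 scaled median absolute deviations, *KLK8* had -0.27, *KLK10* (209792_s_at) -0.27 and *ST14* (216905_s_at) -0.39, and the member counts fell from 9 to 5 of 13 probe sets, by the threshold on all arrays and in limma (5), and from 8 to 5 of 10 genes. Genes of the 7 lists above background fell from 33 to 20 of 79. The shares over all genes and all probe sets were computed for the main threshold only. *KLK7* turned to 0.20 with the 90th percentile, 0.14 with reference genes at the mean of their probe sets and 0.013 without _x_at and _s_at probe sets (limma adjusted p = 0.0978, 0.274 and 0.923). Without _x_at and _s_at probe sets, 4 of 7 probe sets (4 in limma) and 4 of 6 genes were above background. Fewer were measured, and *KLK10*, left with 215808_at only, lay at -1.65 (limma adjusted p = 5.07e-12) and lost its call. The calls of *KLK5*, *KLK8*, *KLK10* and *SPINT2* rest on _s_at probe sets, which can bind several transcripts. With a gene at the mean of its probe sets, an alternative chosen after seeing the data, 6 of 10 genes were above background. Leaving out each culture gave median SDs over the remaining cultures of 0.0693 to 0.228, against 0.165 over all 3, with 0.0693 without culture 1. It kept 9 probe sets and 8 genes above background each time. Of 140 list counts, 122 stayed within 1.5 times and 18 moved. Among those that moved, regulators fell to 1 of 5 without _x_at and _s_at probe sets and other kallikreins rose to 1 of 7 with the 90th percentile. The causes of these changes were not tested beyond what each alternative's construction fixes. No paired analysis was possible because there is 1 group. With 3 arrays, differences between single cultures have no test, and levels near 7 cannot be told from background.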
